A study of Homo sapiens and Mus musculus with 20 samples.

Results

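The regions of open chromatin at 9 genes of histone acetylation were examined in SW480, an established human colorectal adenocarcinoma line. The genes were EP300, CREBBP, KAT2A, KAT2B, KAT5, KAT6A, KAT6B and KAT7, which encode acetyltransferases, and BRD2, which encodes an acetyl-lysine reader. Their regions were all merged ATAC-seq peaks within the gene body and 5 kb on both sides, which gave 74 regions of the 252173 in the 12 SW480 libraries, at 9 of 20033 protein-coding genes. ATAC-seq inserts adapters into accessible DNA with the Tn5 transposase, so a peak marks open chromatin and not the expression of a gene. There were 4 groups of 3 libraries each. SW480 cells received 10 mM sodium propionate (NaPr) for 12 to 16 h or no NaPr, and in a separate experiment 1 mM sodium butyrate (NaBu) for 12 to 16 h or no NaBu. The NaPr and NaBu experiments carry different dates and have their own untreated libraries. The doses differ as well, so the 2 compounds are given side by side and not tested against each other. The labels number the libraries of a group but do not say that they came from separate cultures, so the p-values measure the spread between these libraries, which may be technical.

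Histone acetyltransferases move an acetyl group from acetyl-CoA to lysines of histone tails, and several of them also accept propionyl-CoA or butyryl-CoA. EP300 and CREBBP are close paralogs that act as coactivators at enhancers and promoters, KAT2A and KAT2B are the catalytic subunits of the SAGA and ATAC coactivator complexes, and KAT5, KAT6A, KAT6B and KAT7 belong to the MYST family. BRD2 is a BET protein whose bromodomains bind acetylated lysines. Butyrate is also a well known inhibitor of histone deacetylases, the enzymes that remove these acetyl groups, and colon epithelium meets both fatty acids as products of bacterial fermentation.

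The sequences of 6 of the 10 regions called with NaBu are shown here. The region with the largest fall, in CREBBP, is not among them. Each is given as the 200 bases around the highest summit, read on the + strand of GRCh38. Capitals mark the motif strings searched on either strand: TGACTCA for AP-1 sites, TGACGTCA for cAMP response elements (CRE), GGGCGG for the GC boxes of SP and KLF factors, CCGGAAG for ETS sites, CACGTG for the E-box, and ATTGG for the CCAAT box. The region in an intron of KAT2B, called in both comparisons, lies at chr3:20054272-20055346, and the window is chr3:20054748-20054947. It holds 2 AP-1 strings, on opposite strands, and 1 CCAAT box.
KAT2B intron: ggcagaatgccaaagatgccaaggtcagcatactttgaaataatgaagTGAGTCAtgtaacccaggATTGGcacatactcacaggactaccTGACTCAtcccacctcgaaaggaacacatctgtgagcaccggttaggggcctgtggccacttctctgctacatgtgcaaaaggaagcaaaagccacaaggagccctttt
The region over the start of KAT5 lies at chr11:65711646-65712969, and its window chr11:65712128-65712327 holds 2 ETS strings and 2 overlapping GC boxes.
KAT5 start: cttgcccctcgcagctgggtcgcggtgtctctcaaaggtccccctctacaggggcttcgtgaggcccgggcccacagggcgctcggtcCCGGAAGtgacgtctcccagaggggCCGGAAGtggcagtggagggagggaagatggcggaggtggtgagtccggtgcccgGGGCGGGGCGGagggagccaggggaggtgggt
Inside BRD2, a region at chr6:32969222-32970293 that fell with NaBu and one at chr6:32971496-32972479 that rose are shown as chr6:32969453-32969652, with 1 E-box, and chr6:32971847-32972046, with 1 CRE and 3 CCAAT boxes of which 2 overlap.
BRD2 lower: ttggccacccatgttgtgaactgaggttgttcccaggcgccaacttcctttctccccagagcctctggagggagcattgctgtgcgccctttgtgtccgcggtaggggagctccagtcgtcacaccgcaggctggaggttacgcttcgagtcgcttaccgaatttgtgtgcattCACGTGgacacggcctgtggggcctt
BRD2 higher: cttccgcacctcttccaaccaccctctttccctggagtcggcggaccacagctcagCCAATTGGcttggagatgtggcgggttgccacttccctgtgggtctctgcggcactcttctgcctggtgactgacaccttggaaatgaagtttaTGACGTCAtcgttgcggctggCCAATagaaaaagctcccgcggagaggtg
Inside KAT6B, an intronic region at chr10:74923570-74924755 that fell with NaBu and its neighbour at chr10:74926921-74927453 that rose are shown as chr10:74924359-74924558, with 1 CCAAT box, and chr10:74927075-74927274, which holds none of the 6 strings.
KAT6B lower: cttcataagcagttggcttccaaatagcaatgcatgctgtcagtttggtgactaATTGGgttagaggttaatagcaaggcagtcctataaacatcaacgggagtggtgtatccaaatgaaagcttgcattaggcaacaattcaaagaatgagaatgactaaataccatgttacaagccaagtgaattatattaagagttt
KAT6B higher: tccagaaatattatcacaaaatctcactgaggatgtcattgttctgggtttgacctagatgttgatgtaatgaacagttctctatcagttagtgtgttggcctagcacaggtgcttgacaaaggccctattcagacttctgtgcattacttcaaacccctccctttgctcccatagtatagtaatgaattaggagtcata

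The SW480 lists held 108442 to 144398 peak intervals per library. The lowest local background at the summits of a library was 0.936 to 2.35 overlapping tags in the NaPr experiment. In the NaBu experiment it was 2.11 to 3.03. Each region was given the percentile rank of its highest −log10 p among the regions with a peak in that library, from just above 0 to 100, and 0 where no peak was listed. A rank of 0 therefore means that no peak passed the limit of that list, which lay between a −log10 p of 3.37 and 9.38. Changes are differences of mean rank in points, treated minus untreated, and were tested with limma over all regions with a peak in at least 2 of the 6 libraries. Regions over the starts of EPCAM, KRT8, KRT18, KRT19, CDH1, CDX2 and VIL1, markers of colon epithelium, held a peak in all 12 libraries, LGALS4 in 8 and CDX1 in 0. Of the markers of other cell types, PTPRC, CD3E, PECAM1, CDH5, COL3A1, DCN and ALB were at 0 in every library, whereas CD14 and COL1A1 held a peak in 12, VWF in 6 and APOA1 in 1.

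At the 9 genes, 1 region rose and 0 fell with NaPr, whereas 5 rose and 5 fell with NaBu. With NaPr, 42 of the 74 regions could be tested and 2.38% were called, beside 5.32% of all 124067 tested regions, of which 3.1% rose and 2.22% fell. With NaBu, 45 could be tested and 22.2% were called, beside 37.1% of all 123730 tested regions. Regions higher with NaBu made up 11.1% of the tested regions at the 9 genes and 24.0% of all, and regions lower with NaBu made up 11.1% and 13.1%. At an unadjusted p under 0.05 there were 3 regions at the 9 genes with NaPr, or 7.14% of those tested beside 23.1% of all, and 16 with NaBu, or 35.6% beside 47.4%. The median change at the 9 genes was −0.25 points with NaPr and 1.92 with NaBu. Over all tested regions it was 0.53 and 2.92 points. The lists differed in length beside this shift, since the NaBu-treated ones held 126008 to 128955 intervals and the untreated ones 108442 to 120971. With ranks taken over all tested regions, a choice made after seeing the data, the median over all regions was 0.02 and 0.71 points, and the counts at the 9 genes were 1 higher and 0 lower with NaPr, where 4.57% and 3.99% of all tested regions were called higher and lower. With NaBu they were 6 higher and 8 lower in that ranking, or 13.3% and 17.8%, beside 19.8% and 17.2% of all. The tags overlapping at each summit were also recovered from its fold and −log10 p. They were scaled by background, meaning the lowest local background of the library, or by median. The tags were tested only at regions with a peak in all 6 libraries of the comparison. With NaBu these were 28 regions at the 9 genes, and 3 were higher and 10 lower under both scalings, or 10.7% and 35.7%. Scaled by background, 24.0% of all 72559 tested regions were higher and 28.8% lower. Scaled by median, these shares were 24.4% and 28.6%. Ranks tested on the same regions gave 4 higher and 5 lower at the 9 genes. These were 14.3% and 17.9%, beside 26.9% and 14.5% of all. Among all called regions 58.3% rose with NaPr and 64.7% with NaBu in the main ranking. The share with NaBu was 53.4% with ranks over all tested regions, 52.2% in the strongest 50000 intervals, and 45.5% and 46.0% from the recovered tags scaled by background and by median. The share with NaPr was 92.4% and 38.1% from the tags scaled in these 2 ways, 66.8% with a −log10 q of at least 2, and 35.6% to 82.7% when 1 library was left out. Without treated replicate 3, 0 regions were called with NaPr anywhere by limma, against 26369 at an unadjusted p under 0.05.

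**Figure D1:**
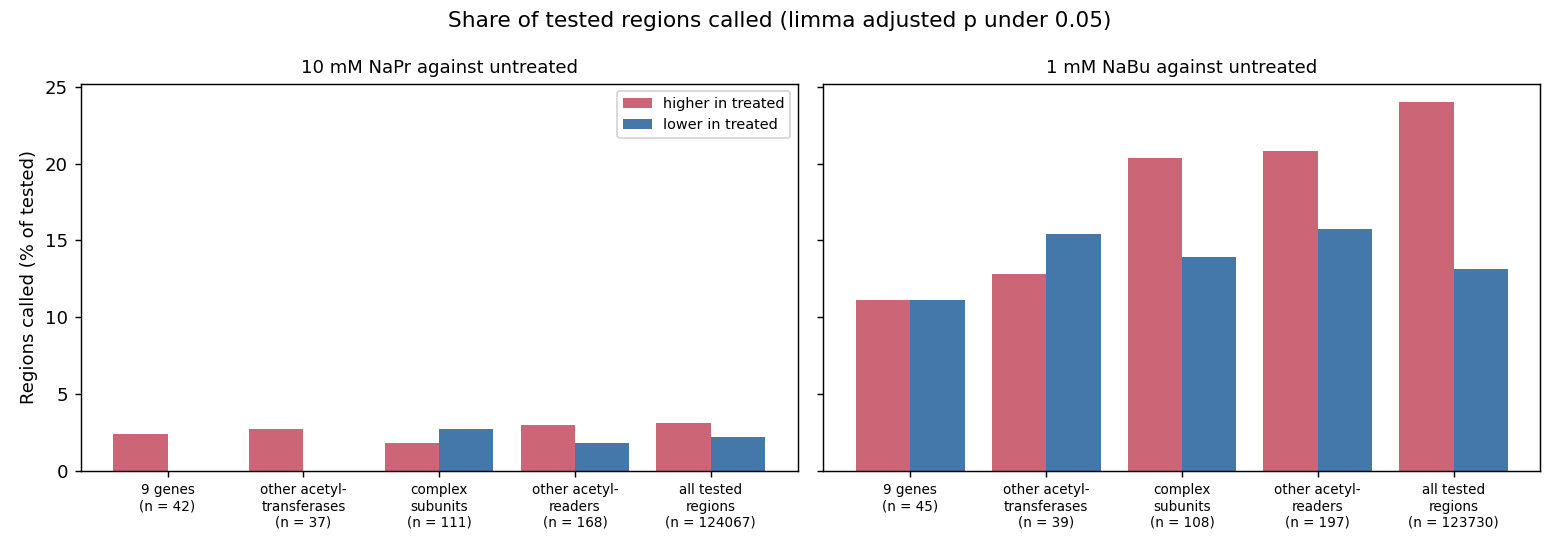
Bars give the percentage of tested regions that limma called higher (red) or lower (blue) in treated SW480 libraries, at the 9 genes, at 3 lists of related genes and over all tested regions, with the number tested under each pair, for 10 mM NaPr (left) and 1 mM NaBu (right). With NaBu the higher bar of the 9 genes, at 11.1%, is below that of all regions at 24.0%. The lower bars are near each other, at 11.1% and 13.1%. Not drawn are the lower shares with ranks over all tested regions, 17.8% and 17.2%. From tags scaled by background, at regions with a peak in all 6 libraries, they were 35.7% and 28.8%.

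Of the 74 regions, 38 lay in introns, 12 downstream, 9 over starts, 8 in coding exons and 7 in UTRs, and they were 73 to 2387 bp long. A peak was present in all 12 libraries at 21 of them, the 9 start regions included, and in 1 library only at 17, or 28.4% and 23.0%, beside 20.1% and 33.7% of all 252173 regions. There were 37 regions with a peak in both experiments, 21 in the NaPr libraries alone and 16 in the NaBu libraries alone, beside 101616, 100960 and 49597 of all regions. All 6 NaBu libraries and none of the 6 NaPr libraries held a peak at 3 regions, of which 2 are in introns of KAT6A and 1 in an intron of BRD2, and the converse was found at 0. The 3 are 4.05% of the 74, beside 3.63% of all regions, and the converse was found at 1.32% of all. The experiments differ in date and depth, whose part in this was not tested.

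Taken over the 9 genes together, the number of regions holding a peak overlapped between the groups over the full lists. Over the 9 genes it was 35.0 ± 4.58 (SD, n = 3) with NaPr and 35.0 ± 3.00 without (exact permutation test, two-sided, p = 1), and 38.7 ± 2.31 with NaBu and 38.0 ± 3.00 without (p = 0.9 in the same exact test). The smallest p that 3 against 3 libraries allow is 0.1. In the strongest 50000 intervals of each list the difference with NaBu was −3.33 regions and had this p (exact permutation test, p = 0.1). It was also reached at EP300 over the full lists, where each NaBu-treated library held 3 regions with a peak and the untreated ones held 4, 5 and 4. In the NaBu experiment, KAT6B held 7 to 10 regions with a peak in the treated libraries and 5 to 8 in the untreated ones, and KAT7 held 2 in each treated library and 1 to 2 in the untreated ones, so both overlapped between groups.

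Every one of the 9 genes had a region over its start with a peak in all 12 libraries. The start regions of KAT6B, KAT7 and KAT5 stood highest, with median ranks of 99.5, 98.6 and 98.0 over the 12 libraries, and those of CREBBP and BRD2 lowest, at 67.5 and 66.9. In untreated libraries of the NaBu experiment the order by mean rank was KAT6B, KAT7, KAT5, EP300, KAT6A, KAT2B, KAT2A, BRD2 and CREBBP, and only KAT7 and KAT5, and BRD2 and CREBBP, overlapped with the next gene in this order. In the untreated NaPr libraries the order was KAT6B, KAT7, KAT5, KAT2A, KAT6A, EP300, KAT2B, CREBBP and BRD2, and neighbours overlapped except for KAT7 and KAT5, KAT5 and KAT2A, and EP300 and KAT2B. These ranks order the summits by −log10 p, which grows with depth and is not a level per length. The summit of the KAT7 start region stood 19.8 ± 1.05 (SD, n = 3) fold over the local background in untreated NaBu libraries, whereas that of BRD2 stood 4.09 ± 0.30 fold. The start regions of EP300, KAT7 and BRD2 also cover starts of MIR1281, FAM117A and HLA-DMA, and signal there cannot be assigned to one gene.

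**Figure D2:**
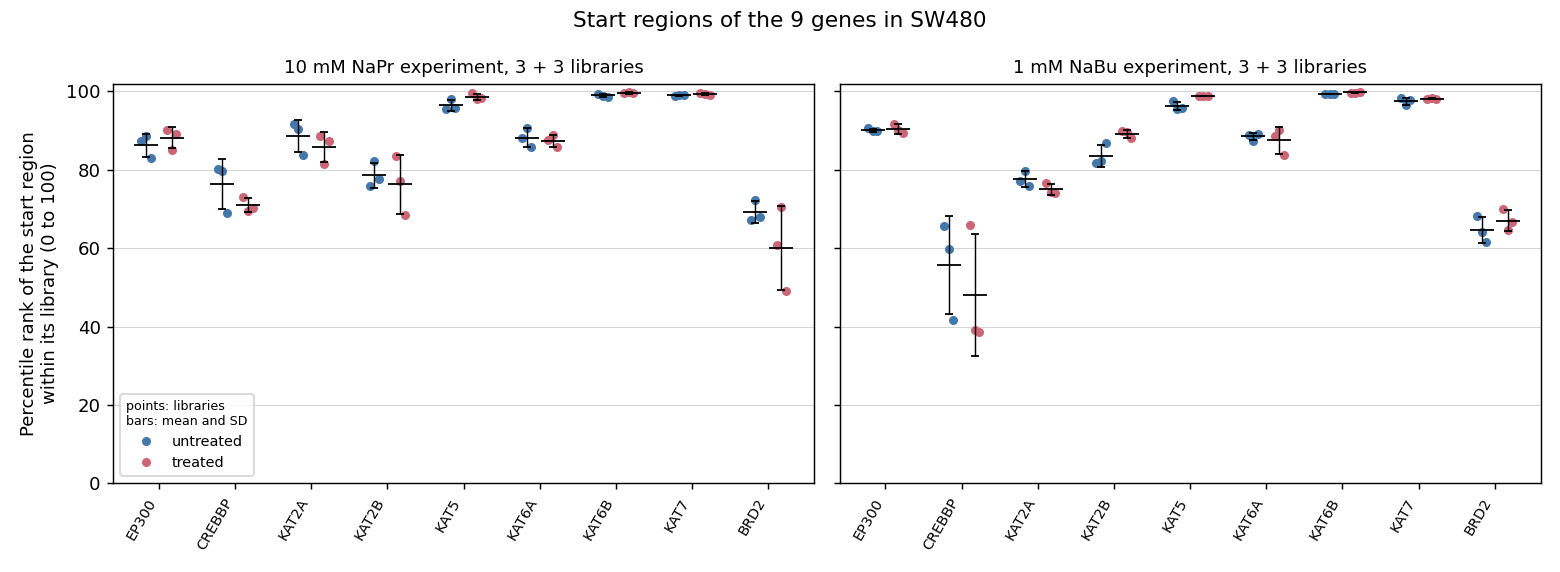
Percentile rank within its library (0 to 100) of the region over the start of each gene, in untreated (blue) and treated (red) libraries of the NaPr (left) and NaBu (right) experiments, with each library as a point and the mean and SD as a bar. The KAT5, KAT6B and KAT7 points lie near the top in both panels, and the NaBu-treated points of KAT2B and KAT5 lie above all of their untreated points.

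With NaPr, 0 of the 9 start regions were called by limma, beside 0.804% higher and 5.76% lower among 12810 start regions of all protein-coding genes. With NaBu, the start regions of KAT2B and KAT5 rose and 0 fell, beside 9.34% higher and 20.7% lower among 12597. The median change of the 9 was −0.77 points with NaPr and 0.35 with NaBu, against −0.91 and −0.68 over all start regions. The number of recovered tags gave other calls at the starts. Scaled by background or by median, the EP300, KAT2A and KAT6A starts were lower with NaBu by limma, with log2 changes of −0.32, −0.33 and −0.37 in the former, and at EP300 this is the opposite sign to the rank change of 0.35 points. Scaled by median, KAT2A, KAT6A and BRD2 were lower with NaPr, at −0.41, −0.32 and −0.37, and scaled by background none of these 3 was called.

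At EP300, a coactivator with 6 regions, the start region did not differ beyond its spread in either comparison, and a small region just inside the first intron fell with NaBu. The start region had ranks of 87.3, 88.6 and 82.9 in the untreated and 90.3, 85.1 and 89.2 in the NaPr-treated libraries. In the NaBu experiment it had 90.6, 89.9 and 89.9 untreated and 91.8, 90.2 and 89.4 treated. The changes were 1.94 ± 1.83 (SE) and 0.35 ± 0.87 points, and the groups overlapped in both. With ranks by fold enrichment the change with NaBu was 6.23 points and passed the threshold (limma adjusted p = 0.0387). The intronic region at chr22:41093245-41093387, with its summit 722 bp past the start, held peaks of rank 28.0, 46.5 and 8.70 in the 3 untreated NaBu libraries and no peak in any of the other 9 libraries. It fell by 27.8 ± 8.81 points with NaBu (limma adjusted p = 0.0379). This call was lost with ranks by fold enrichment (change −7.96 points, adjusted p = 0.0987), with regions of at least 1 library kept (0.0742), and without any 1 of the libraries other than untreated replicate 3 (0.0767 to 0.112). In windows of 150 bp on each side of the summits the region joined its neighbours, and the change was 0.51 points. The neighbouring region in the coding part of the first exon had 50.6, 44.7 and 43.1 untreated and 42.0, 11.7 and 6.98 treated, which fell short of the threshold (change −25.9 points, limma adjusted p = 0.0602) and passed it with ranks over all tested regions (0.0423). A region just past the 3′ end held a peak in all 12 libraries and was not called in either comparison.

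At CREBBP, the paralog of EP300, 2 regions fell with NaBu and the start region did not differ beyond its spread. The largest fall at any of the 9 genes was in an intron at chr16:3819818-3820567, 60802 bp past the start. Its ranks were 63.1, 70.7 and 56.7 in the untreated and 0, 26.8 and 21.4 in the NaBu-treated libraries, with no overlap. It fell by 47.4 ± 8.08 points (limma adjusted p = 0.00297), and the change was −22.6 points in the strongest 50000 intervals. In the NaPr experiment the ranks were 34.2, 0 and 31.3 untreated and 0 in all 3 treated libraries, a change of −21.8 ± 10.1 points that did not pass the threshold (limma adjusted p = 0.221). The other region lies at chr16:3879336-3880363 and covers the start of a further RefSeq transcript of CREBBP, 137 bp from the region over the main start. It was not the largest change of its gene and was named after its values were seen. Its ranks were 59.0, 58.0 and 55.7 untreated and 28.0, 1.18 and 30.1 with NaBu, and it fell by 37.8 ± 8.24 points (limma adjusted p = 0.00839), a call that was lost when only the strongest 50000 intervals were kept (change −9.90 points, 0.0830). On the deposited scale, its summit stood 8.99 ± 0.46 (SD, n = 3) fold over background untreated and 5.31 ± 0.69 with NaBu. With NaPr it had 70.0, 69.5 and 60.9 untreated and 77.3, 61.6 and 59.7 treated, and the groups overlapped. The region over the main start had 65.7, 59.8 and 41.7 untreated and 65.9, 39.2 and 38.7 with NaBu, a change of −7.77 ± 8.95 points with overlap, and 80.3, 79.8 and 69.0 untreated and 72.9, 69.6 and 70.4 with NaPr, a change of −5.43 ± 3.38. Of its 14 regions, 5 held a peak in 1 library only.

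**Figure D3:**
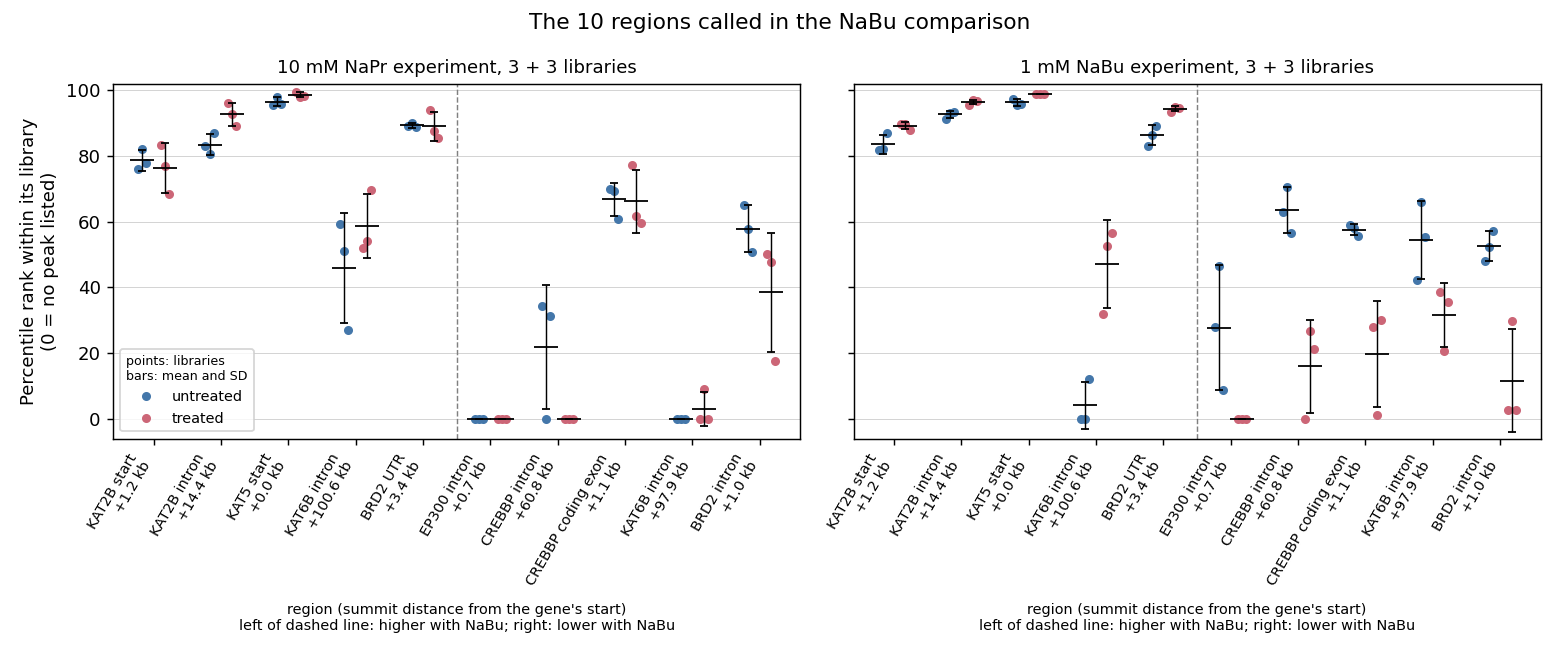
Percentile rank within its library (0 where no peak was listed) of the 10 regions called with NaBu, named by gene, place and summit distance from the gene's start, in the NaPr (left) and NaBu (right) experiments, with libraries as points and the mean and SD as bars. In the right panel the treated points lie above the untreated ones left of the dashed line and below them right of it, while in the left panel that separation is seen at the KAT2B intron, the KAT5 start and the BRD2 intron and not at the other 7 regions.

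KAT2A and KAT2B, paralogs that occupy the same place in their complexes, had 6 and 3 regions. At KAT2A, 5 regions were tested in each comparison and 0 were called by limma. Its start region had 91.7, 90.4 and 83.9 untreated and 88.5, 81.6 and 87.4 with NaPr, a change of −2.82 ± 2.27 points. It had 77.2, 79.8 and 75.9 untreated and 76.7, 74.4 and 74.1 with NaBu, a change of −2.62 ± 1.80, and the groups overlapped in both. A region downstream of KAT2A that covers starts of DHX58, at chr17:42107484-42108566, had its NaBu-treated ranks above its untreated ranks (change 3.56 points, limma adjusted p = 0.0688) and was not called.

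At KAT2B, the start region rose with NaBu and the intronic region shown above rose with both compounds. The start region had 81.7, 82.1 and 86.9 untreated and 89.8, 89.7 and 88.0 with NaBu, a rise of 5.62 ± 1.50 points (limma adjusted p = 0.0194). It was no longer called with ranks by fold enrichment (0.158), from recovered tags scaled by background (0.318) or by median (0.289), or without untreated replicate 1, untreated replicate 2, treated replicate 1 or treated replicate 2 (0.0687 to 0.0779). With NaPr its ranks were 76.0, 82.2 and 77.7 untreated and 83.4, 77.0 and 68.4 treated, and the groups overlapped. The intronic region, 14402 bp past the start, had 83.1, 80.5 and 86.8 untreated and 96.1, 92.8 and 89.0 with NaPr. It rose by 9.18 ± 2.01 points (limma adjusted p = 0.0286) and was the one region called with NaPr at the 9 genes. That call was lost without any 1 of the 6 libraries (0.0694 to 0.114, change 7.45 to 11.0 points), with ranks by fold enrichment (change 2.62 points, 0.380) and with regions of at least 1 library kept (0.128). In the NaBu experiment it had 91.3, 93.2 and 93.3 untreated and 95.6, 97.0 and 96.6 treated, a rise of 3.76 ± 0.76 points (limma adjusted p = 0.00620) that was 0.85 points above the median of all regions and was lost with ranks by fold enrichment (change 0.13 points, 0.909). Of the 30 regions at the 9 genes tested in both comparisons, this was the 1 called in both. The share called in both over all regions was not counted, so nothing is read from this number. Whether the NaPr and NaBu changes differ was not tested.

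In the MYST family, KAT5, KAT6A, KAT6B and KAT7 had 3, 8, 15 and 8 regions, and the calls with NaBu were at KAT5 and KAT6B. KAT5, also known as TIP60, is the catalytic subunit of the NuA4 complex. Its start region had 97.5, 95.5 and 95.9 untreated and 98.8, 98.9 and 98.9 with NaBu, a rise of 2.61 ± 0.62 points (limma adjusted p = 0.012). This is 0.31 points below the median over all regions in the main ranking. With ranks over all tested regions the rise was 2.05 points, where that median was 0.71. The call was lost with ranks by fold enrichment (limma adjusted p = 0.344). It was kept from recovered tags scaled by background (0.00587) and by median (0.00479). A rank near 100 leaves little room above it. With NaPr it had 95.5, 98.0 and 95.8 untreated and 99.5, 98.0 and 98.3 treated, with no overlap, although the nearest values both round to 98.0, and no call (change 2.18 ± 0.85 points, limma adjusted p = 0.157). A region downstream that covers a start of RNASEH2C held a peak in all 12 libraries and was not called.

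KAT6A and KAT6B, also known as MOZ and MORF, are paralogs that acetylate histone H3. At KAT6A, 3 regions were tested with NaPr and 6 with NaBu, and 0 were called by limma in the main ranking. Its start region had 88.1, 90.6 and 85.8 untreated and 87.5, 88.9 and 85.9 with NaPr, and 89.0, 87.4 and 89.2 untreated and 88.5, 90.2 and 83.8 with NaBu, and the groups overlapped. A cluster of 3 intronic regions, with summits 94014 to 95309 bp past the start, held peaks in the NaBu experiment and in none of the 6 NaPr libraries. The strongest of them had 76.4, 86.9 and 80.4 untreated and 73.1, 78.5 and 78.5 with NaBu and was not called. The outer 2 were called lower with ranks over all tested regions (limma adjusted p = 0.0312 and 0.0490) and not in the main ranking (0.0544 and 0.0815).

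At KAT6B, neighbouring intronic regions moved in opposite directions with NaBu. The region 97859 bp past the start had 42.2, 65.9 and 55.4 untreated and 38.8, 20.7 and 35.4 with NaBu, and fell by 22.9 ± 7.79 points (limma adjusted p = 0.0485). It was named after its values were seen, and the call was lost with replicate number as a block (0.054), in windows around summits (0.0501), in the strongest 50000 intervals (change −9.73 points, 0.239), with regions of at least 1 library kept (0.0813), and without any 1 library except untreated replicate 1 (0.0631 to 0.155). The region 100575 bp past the start, with its summit 2716 bp further on, had no peak in untreated replicates 1 and 2, 12.3 in untreated replicate 3, and 31.8, 52.7 and 56.6 with NaBu. It rose by 43.0 ± 7.99 points (limma adjusted p = 0.00428), the largest rise at the 9 genes. The same region had 59.4, 51.1 and 27.1 untreated and 52.1, 54.1 and 69.8 treated in the NaPr experiment, where the groups overlapped and no call was made. From recovered tags scaled by background it was called higher with NaPr (log2 change 0.79, limma adjusted p = 0.0404). Its untreated level was 45.8 ± 16.8 (SD, n = 3) in the NaPr experiment and 4.10 ± 7.09 in the NaBu experiment, while the falling region had no peak in untreated NaPr libraries and 54.5 ± 11.9 in untreated NaBu libraries. The KAT6B start region had 99.4, 98.9 and 98.6 untreated and 99.5, 99.8 and 99.6 with NaPr, and 99.4, 99.5 and 99.4 untreated and 99.7, 99.7 and 99.8 with NaBu. Its treated ranks were above the untreated ones in both experiments, by 0.65 ± 0.61 and 0.32 ± 0.40 points, and neither was called. A region downstream of KAT6B, 209564 bp from the start, held a peak in all 3 NaBu-treated and no untreated library of that experiment. It was called higher with ranks over all tested regions (limma adjusted p = 0.0128) and not in the main ranking (change 18.2 points, 0.0521).

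KAT7, also known as HBO1, is an H3 and H4 acetyltransferase linked to replication origins. Its start region had 98.8, 99.1 and 99.1 untreated and 99.5, 99.5 and 99.1 with NaPr, and 98.2, 96.6 and 97.8 untreated and 98.0, 98.4 and 98.1 with NaBu, and 0 of its regions were called by limma in either comparison, of 5 and 2 tested.

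**Figure D4:**
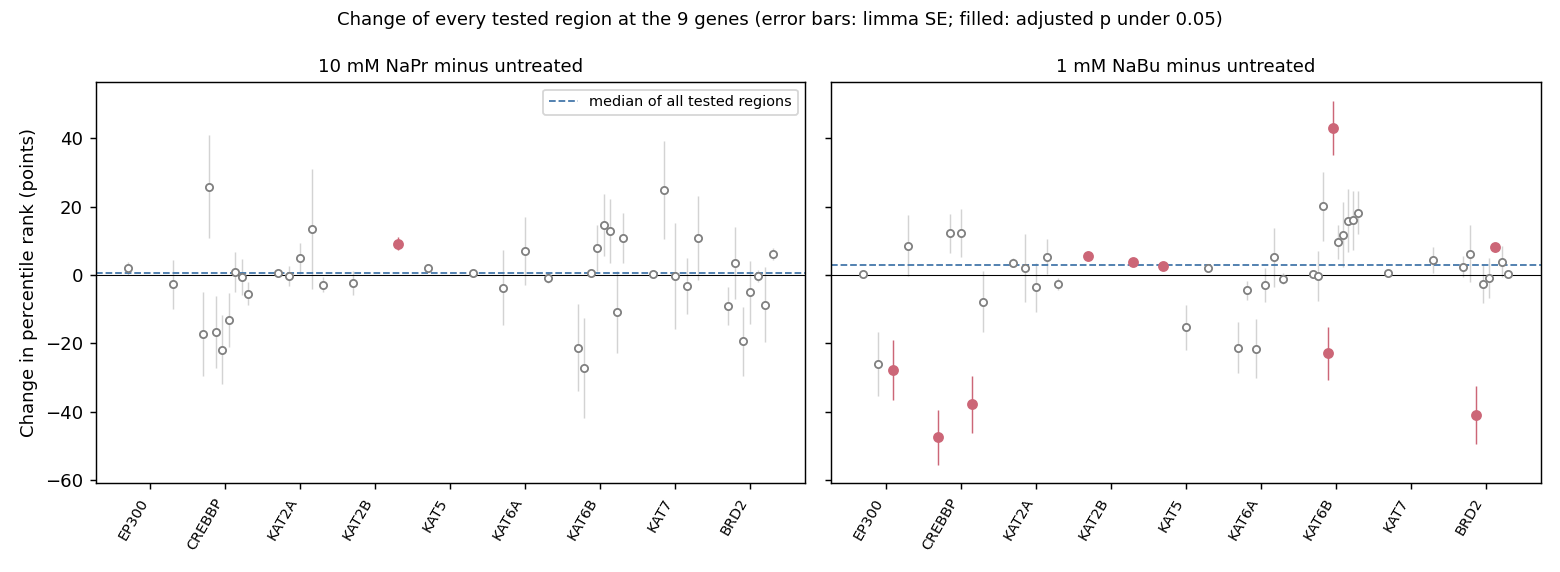
Change in percentile rank (points, treated minus untreated) of every tested region by gene, with the limma SE as error bar, filled red where the adjusted p is under 0.05, and the median of all tested regions as a dashed line, for NaPr (left) and NaBu (right). With NaPr the filled point is the KAT2B intronic region at 9.18 points, and with NaBu the filled points run from −47.4 at CREBBP to 43.0 at KAT6B.

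At BRD2, the BET reader, an intronic region fell and a region over an internal start rose with NaBu. The falling region, with its summit 959 bp past the start, covers 3 GENCODE transcript starts of BRD2. Its ranks were 48.1, 52.4 and 57.2 untreated and 2.62, 29.7 and 2.74 with NaBu, with no overlap. It fell by 40.9 ± 8.37 points (limma adjusted p = 0.00646). On the deposited scale its summit stood 3.28 ± 0.21 (SD, n = 3) fold over background untreated and 2.34 ± 0.31 with NaBu. The change was −5.80 points with ranks by fold enrichment, still called, and −12.1 points in windows around summits, where the call was lost (0.0994). In the NaPr experiment it had 65.2, 57.8 and 50.7 untreated and 50.2, 47.7 and 17.6 treated, also without overlap and short of the threshold (change −19.4 ± 10.1 points, limma adjusted p = 0.27), which it passed from recovered tags scaled by median (log2 change −0.47, 0.0208). The rising region, 2394 bp further on from summit to summit, covers a RefSeq start of BRD2 at position 32971595 and was named after its values were seen. Its ranks were 83.1, 86.5 and 89.2 untreated and 93.5, 94.9 and 94.6 with NaBu, a rise of 8.06 ± 1.43 points (limma adjusted p = 0.00354), and of 18.7 points with ranks by fold enrichment. Its summit stood 6.93 ± 0.57 (SD, n = 3) fold over background untreated and 9.64 ± 0.45 with NaBu. With NaPr it had 89.1, 90.0 and 88.7 untreated and 93.9, 87.7 and 85.4 treated, with overlap. The region over the outermost start, shared with HLA-DMA, had 67.1, 72.4 and 68.0 untreated and 60.7, 70.6 and 49.1 with NaPr, and 68.2, 64.1 and 61.5 untreated and 70.0, 64.5 and 66.6 with NaBu, with overlap in both. A region downstream, 16343 bp from the start, had 79.6, 78.6 and 81.1 untreated and 87.7, 85.0 and 84.6 with NaPr, with no overlap, and missed the threshold (change 6.05 ± 1.69 points, limma adjusted p = 0.0613).

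**Figure D5:**
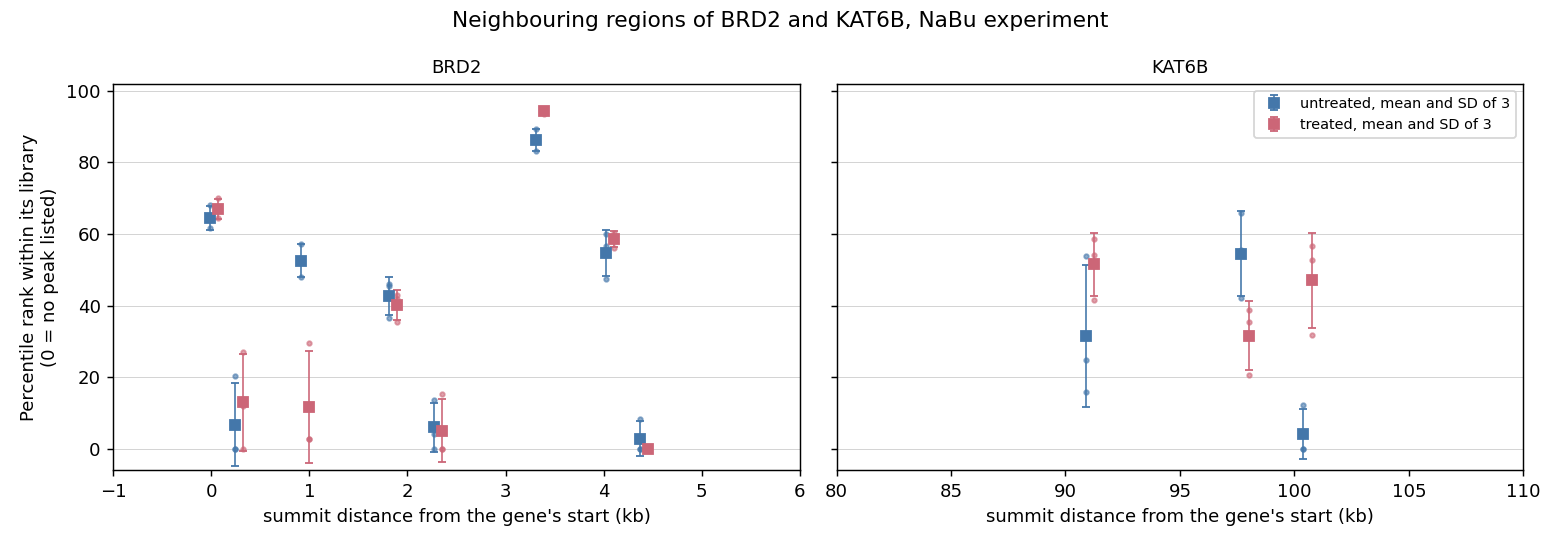
Percentile rank (0 where no peak was listed) of neighbouring regions of BRD2 and KAT6B in the NaBu experiment against the distance of their summits from the gene's start in kb, with squares and bars, set slightly apart sideways, for the mean and SD of 3 untreated (blue) or treated (red) libraries and small points for libraries. In BRD2 the treated values lie lower at 959 bp and higher at 3353 bp, and in KAT6B they lie lower at 97859 bp and higher at 100575 bp.

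Related genes were read from the same fits. Over all tested regions 3.1% rose and 2.22% fell with NaPr, and 24.0% rose and 13.1% fell with NaBu. At 8 other acetyltransferases, 1 of 37 tested regions rose, or 2.70%, and 0 fell with NaPr. With NaBu 5 of 39 rose and 6 fell, or 12.8% and 15.4%. Here the start regions of HAT1, which acetylates newly made histone H4, and NCOA1, a nuclear receptor coactivator, rose with NaBu by 2.32 and 4.25 points (limma adjusted p = 0.0151 and 0.00937). At 26 genes of acetyltransferase complex subunits, 2 of 111 rose and 3 fell with NaPr, or 1.80% and 2.70%. With NaBu 22 of 108 rose and 15 fell, or 20.4% and 13.9%. Among these genes, the start regions of BRPF1 and BRD1, scaffolds that bind KAT6A, KAT6B and KAT7, fell by 15.1 and 27.0 points with NaBu (limma adjusted p = 0.00333 and 0.00412). At 30 other genes of acetyl readers, 5 of 168 rose and 3 fell with NaPr, or 2.98% and 1.79%. With NaBu 41 of 197 rose and 31 fell, or 20.8% and 15.7%. The start region of BRD3, a BET paralog of BRD2, had a change of −4.94 points with NaBu without a call (limma adjusted p = 0.709). The start of BRD9, a subunit of a SWI/SNF complex, rose in both comparisons, by 3.67 points with NaPr and 4.59 with NaBu (limma adjusted p = 0.0405 and 0.00100). Of the start regions tested with NaBu in the 3 lists, 2, 2 and 7 rose and 1, 5 and 4 fell, of 7, 26 and 28. Over all start regions 9.34% rose and 20.7% fell. The genes named here from these lists were chosen after their values were seen.

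The motif strings were counted in the 200 bases around each highest summit, as a description of letters and not of binding. The AP-1 string was in 7 of the 74 regions at the 9 genes, or 9.46%, against 12.8% of all regions, and the GC box was in 15, or 20.3%, against 11.3%. The GC box was in 7 of the 9 start regions, against 60.5% of all start regions. The CRE string was in 1 of the 74, the BRD2 region that rose with NaBu, against 0.292% of all regions. The E-box, ETS and CCAAT strings were in 3, 2 and 21 of the 74, against 3.88%, 1.89% and 22.5% of all. Of the 5 regions higher with NaBu, only the KAT2B intronic region held an AP-1 string, and of the 5 lower ones none did.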

How the data were processed

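ATAC-seq of SW480 was made in 12 libraries. The authors aligned reads to GRCh38 and called peaks in each library separately, and the submitters' processing notes name bcl2fastq 2.17.1, cutadapt 1.9.1, Bowtie2 2.3.1 and MACS2 2.1.0. Each line of the deposited lists is a summit, with an interval, the ratio of its pileup to the local background (fold enrichment), a p-value and a q-value as −log10, and an offset. Their numbering ended at 300000 per list. The authors' differential sites came from reads, which were not analysed here, and 8 CT26 libraries of the series were not used. Intervals overlapping by at least 1 bp were merged over the 12 lists and assigned to genes by GENCODE release 44 on the same build. Start regions are those over the canonical transcript start or the nearest within 1 kb. Ranks were compared by limma 3.58.1 in R 4.3.3 with a variance trend and Benjamini-Hochberg adjustment over all tested regions at 0.05, with no covariate. The labels do not say whether the replicate numbers pair the libraries, and the numbers were not taken as pairs. Numbers of regions with a peak were compared by an exact permutation test, two-sided. The summit's whole number of overlapping tags was recovered from its fold and −log10 p, and was solved for 100% of summits. Tags were tested only at regions with a peak in all 6 libraries of a comparison. Scripts were tested on simulated data. The naming rule covered, for each gene, its start region, its called region of largest change per comparison and any region called in both. Every other region given, called or not, lies outside this rule. Such regions were chosen after their values were seen, also where this is not said beside them. The 9 genes and the lists of related genes were chosen with earlier results of these data known. RefSeq starts came from GRCh38.p14.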

Additional observations from a re-analysis of the deposited data

How the results depend on the processing

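Depth limits what a missing peak means, because each list stops at its own −log10 p, and ranks near 100 cannot rise further. Pairs of lists from the same group shared at most 0.796% of their intervals exactly, and other pairs were not compared. All regions called numbered 6598 with NaPr and 45903 with NaBu. With NaPr the count was 0 with ranks by fold enrichment (20921 at an unadjusted p under 0.05), 10618 with ranks over all tested regions, 1313 with regions of at least 1 library kept, 20934 from tags scaled by median, and 0 to 3179 when 1 library was left out. With NaBu it was 22587 in the strongest 50000 intervals and 29971 with a peak required in all 6 libraries, where fewer regions were tested, and 36865 to 42215 when 1 library was left out. At the 9 genes the 1 call with NaPr became 0 with ranks by fold enrichment, 2 with −log10 q of at least 2, 0 with regions of at least 1 library kept, 3 and 5 from tags scaled by background and by median, 5 with 50 kb on both sides, and 0 whichever library was left out. From tags scaled by background all 3 were higher, of 23 tested, beside 13.5% higher and 1.1% lower over all tested regions. From tags scaled by median 1 was higher and 4 lower of 23, or 4.35% and 17.4%, beside 12.2% and 19.9% of all. With 50 kb on both sides 3 were higher and 2 lower of 110, or 2.73% and 1.82%, beside 3.1% and 2.22% of all in the main ranking. The 10 calls with NaBu became 5 of 22 tested in the strongest 50000 intervals. There, 18.2% were higher and 4.55% lower, beside 21.3% and 19.5% of all. With 50 kb on both sides they became 34 of 96 tested, and 21.9% were higher and 13.5% lower. Over all tested regions these shares were 24.0% and 13.1%. When 1 library was left out the calls were 8 to 11. Then 8.89% to 15.9% were higher and 6.82% to 11.1% lower, beside 18.9% to 23.4% and 10.3% to 12.3% of all. From tags scaled by background or median they were 13 of 28 tested, of which 3 were higher and 10 lower. The difference in regions with a peak ran from −2.5 to 2 with NaPr and from −0.83 to 2.2 with NaBu when 1 library was left out, and was −3.33 with NaBu in the strongest 50000 intervals. With 3 or fewer libraries a group, no such difference can pass the threshold.

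The EP300 start changed sign with NaBu from tags, with log2 changes of −0.325 scaled by background and −0.321 by median, and the EP300 intronic region gave 0.507 points in windows around summits, where it joined its neighbours. For the other changes the cause was not tested. Of 525 values of named regions under the alternatives, 477 kept their side of the threshold, 35 lost a call, 10 gained one and 3 reversed, and 31 uncalled values changed sign. Deviations of libraries with the same number correlated across regions by 0.00492 to 0.0184 with NaPr and 0.00836 to 0.0313 with NaBu. Those with other numbers correlated by −0.0136 to 0.00408 and −0.0289 to 0.0123. These small values do not settle whether the numbers mark pairs, and they were not taken as pairs. With replicate number as a block, 7647 regions were called with NaPr and 47756 with NaBu, and 1 and 11 at the 9 genes.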
